A study of Homo sapiens with 2 samples.

Results

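The genes for 5 insulin-like growth factor binding proteins (IGFBP1, IGFBP3, IGFBP4, IGFBP6 and IGFBP7) were described, out of 14884 genes named on the array. They were chosen by gene symbol, with their differences between the arrays already known, so those differences are a description and support nothing by themselves. The cells were of the AsPC-1 line, which was established from a human pancreatic adenocarcinoma, kept as a 3-dimensional culture with a collagen gel laid over the cells. The compressed group was 1 culture held under 2.9 mmHg of compressive stress for 24 h, and the uncompressed group was 1 culture kept for 24 h without it. Total RNA was measured on 1 whole-transcript array per group, the GeneChip Human Gene 2.0 ST. The design therefore allows neither a test nor a p-value, and having only 2 arrays limits the precision of every value. The labels name no other agent or genetic change in either group.

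Insulin-like growth factors (IGFs) are secreted relatives of insulin that act through the receptor tyrosine kinase IGF1R. IGF binding proteins are secreted carriers that hold IGFs outside the cell, where they can withhold the ligand from its receptor or deliver it when a protease cuts the carrier, and several of them also act on cells without IGF. IGFBP1 is best known as a liver and decidual protein whose gene is repressed by insulin through FOXO transcription factors and induced by glucocorticoids, hypoxia and amino-acid shortage.

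The level is the log2 RMA signal of a probe set, and a difference is the compressed minus the uncompressed level on that scale. Genes were kept for counting where the mean of both arrays was at or above 4.79, the median over named genes, which left 7442 genes. A difference of 1.5-fold, 0.585 in log2, was the fixed size for a count. Over the kept genes the median difference was 0.01, with an interquartile range of -0.15 to 0.18. Where a protein-coding gene had 2 different probe sets above the floor (135 genes), the SD of a single probe set's difference was 0.186, which measures probes and not cultures. Of 9 named epithelial markers 7 were kept, with KRT18 at 11.71 and EPCAM at 10.43 in the compressed culture, against 11.54 and 10.77 in the uncompressed culture, and KRT7 and CLDN4 had means below the floor. All 6 named hepatocyte markers, ALB among them, had means below the floor. Of the fibroblast markers LUM and THY1 were kept and DCN was not, with LUM at 9.39 in the compressed and 9.75 in the uncompressed culture and THY1 at 4.99 and 4.77 in that order. Of 5 named endothelial markers 1 was kept, CLDN5 (5.15 in the compressed and 5.22 in the uncompressed culture), and of 4 named macrophage and leukocyte markers 1, CD68 (9.26 in the compressed and 8.45 in the uncompressed culture). The part of other cells in the differences was not tested.

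Promoter sequence could be shown for 3 of the 5 members, to set the 2 genes with similar positive differences, IGFBP3 and IGFBP6, beside IGFBP4, which had almost none. The 250 bases before the annotated start are given 5′ to 3′ along the gene, from RefSeq on GRCh38.p14, with matches to any of 8 searched motifs in capitals. IGFBP3 lies at chr7:45921273-45921522 on the minus strand, IGFBP6 at chr12:53097417-53097666 on the plus strand and IGFBP4 at chr17:40443200-40443449 on the plus strand.
IGFBP3: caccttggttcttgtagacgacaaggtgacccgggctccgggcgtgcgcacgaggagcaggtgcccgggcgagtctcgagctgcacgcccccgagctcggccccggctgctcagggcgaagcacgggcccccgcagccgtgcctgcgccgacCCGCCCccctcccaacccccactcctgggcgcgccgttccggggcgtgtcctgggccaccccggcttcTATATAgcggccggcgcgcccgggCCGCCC
IGFBP6: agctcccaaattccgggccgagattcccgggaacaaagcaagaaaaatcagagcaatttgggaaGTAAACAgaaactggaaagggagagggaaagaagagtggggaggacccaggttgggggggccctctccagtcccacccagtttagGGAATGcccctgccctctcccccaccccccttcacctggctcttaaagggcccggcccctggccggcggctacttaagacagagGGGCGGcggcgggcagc
IGFBP4: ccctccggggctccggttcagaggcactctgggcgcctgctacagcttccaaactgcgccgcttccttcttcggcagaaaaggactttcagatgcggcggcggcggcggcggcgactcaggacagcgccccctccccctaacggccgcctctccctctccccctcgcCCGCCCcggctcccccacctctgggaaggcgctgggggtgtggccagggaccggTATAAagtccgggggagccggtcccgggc

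The motifs were searched on both strands, and no 2 matches in these windows overlapped. The GC box GGGCGG, which Sp-family factors bind, was in all 3 windows and in 42.6% of the 35116 promoter windows of this length. The TATA box core TATAA was in the IGFBP4 window (18.9% of all windows), and the variant TATATA, added to the search after the sequence was read, was in the IGFBP3 window (3.73%). The IGFBP6 window held the FOXO site GTAAACA, found in 2.98% of all windows, and the TEAD site GGAATG, found in 11.9%. None of the 3 windows held the AP-1 site TGANTCA (6.57% of all windows) or the ATF4 composite site TGATGNAA (3.14%). The hypoxia response core was searched only as ACGTG (18.5% of all windows), which was in none of the 3. Its other form, GCGTG, was not searched, and the IGFBP3 sequence above holds it. The windows were rich in G and C, at 76.0% for IGFBP3, 61.2% for IGFBP6 and 71.6% for IGFBP4, against a median of 58.0% over all windows. The letters describe these windows and do not show binding.

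IGFBP1 had by far the largest difference of the 5 genes. Its level was 9.63 in the compressed and 8.01 in the uncompressed culture, a difference of 1.62 (3.08-fold higher). It ranked 16 from the highest of the 7442 kept genes. Among the 500 named genes nearest to it in mean level, 0 had a difference as high, and the central 95% of those differences ran from -0.44 to 0.75. IGFBP1 was the 1 member of the 4 kept that passed 1.5-fold, and 0 members were lower by that size. Across the kept genes 3.95% passed that size as higher and 1.12% as lower. Nothing is read from the members' count because the members were chosen on this contrast. For the same reason their place among genes of similar level is no test.

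IGFBP6 and IGFBP3 were higher in the compressed culture by about the same, smaller amount. IGFBP6, a carrier that prefers IGF2 to IGF1, read 7.14 in the compressed and 6.56 in the uncompressed culture, a difference of 0.5837. That placed it just outside the 1.5-fold size, at rank 295, directly after PRPF39 (0.5869, rank 294). IGFBP3, the main IGF carrier of serum, where it forms a ternary complex with the acid-labile subunit, read 7.08 in the compressed and 6.55 in the uncompressed culture, a difference of 0.53 (1.44-fold) at rank 380. Among the 500 genes nearest in level, 18 had a difference at or above that of IGFBP6 and 22 one at or above that of IGFBP3, so both lay toward the upper end of the genes of their level without standing clear of them.

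IGFBP4 and IGFBP7 were not higher. IGFBP4, a carrier cut by the protease PAPP-A, read 7.84 in the compressed and 7.86 in the uncompressed culture, a difference of -0.02 that was smaller than the SD between probe sets of a gene. IGFBP7, which binds IGFs weakly and is secreted into the vascular and stromal matrix, read 4.36 in the compressed and 4.77 in the uncompressed culture, below the floor on both arrays. The deposited values differed by -0.41. Whether so dim a probe set was above background is unknown, so this difference is not given as a change in expression. The antisense transcript IGFBP7-AS1 read 2.62 in the compressed and 3.03 in the uncompressed culture, also below the floor. In RNA of whole cultures, fewer cells that express a gene and less RNA per cell cannot be told apart.

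**Figure D1:**
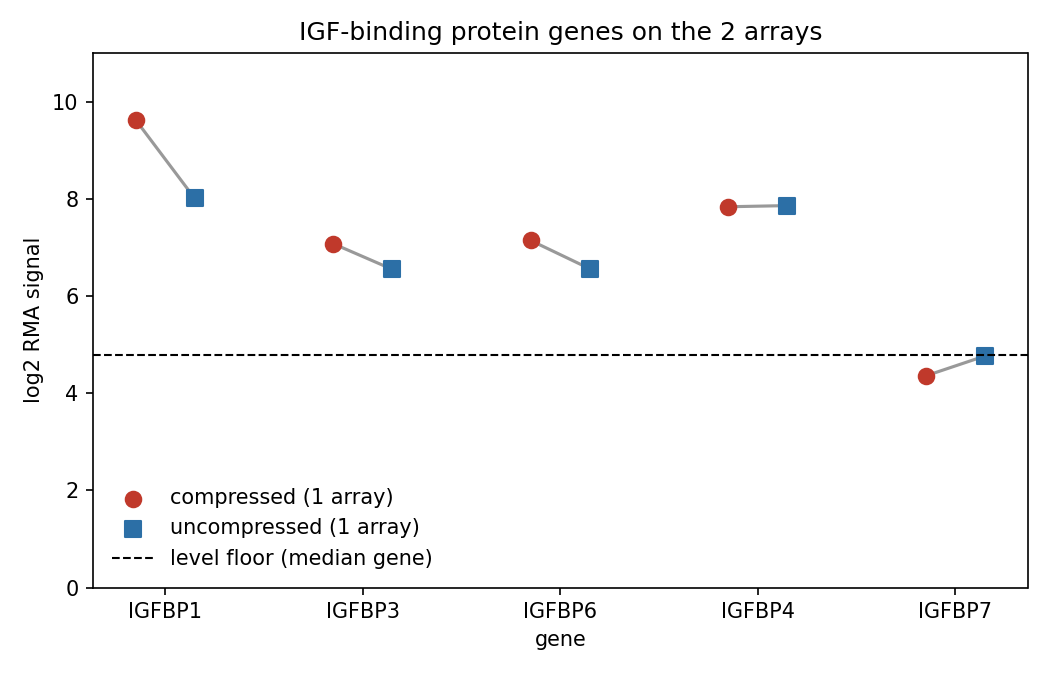
Levels (log2 RMA signal) of the 5 binding protein genes, with a circle for the compressed and a square for the uncompressed array, 1 array each, and a dashed line at the level floor of 4.79. IGFBP1 shows the widest gap (9.63 and 8.01), IGFBP3 and IGFBP6 a similar smaller one, IGFBP4 almost none, and IGFBP7 lies under the line on both arrays.

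**Figure D2:**
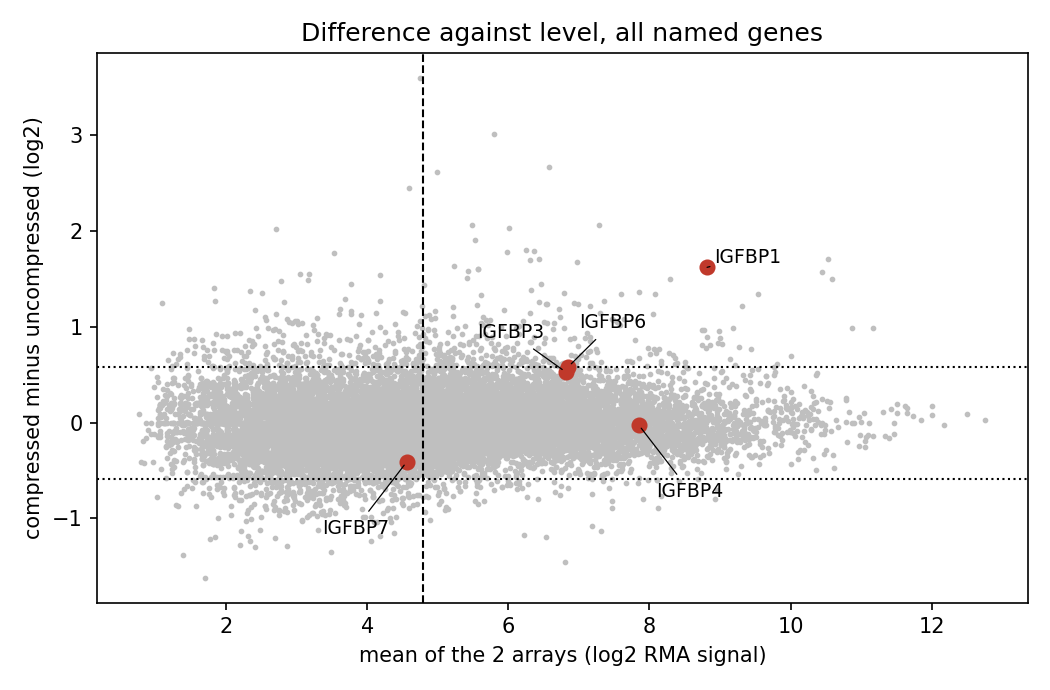
Difference (compressed minus uncompressed, log2) against the mean of both arrays for all 14884 named genes in grey, with the 5 binding protein genes in red, dotted lines at 1.5-fold and a dashed line at the level floor. IGFBP1, at 1.62, stands apart from genes of similar level, whereas IGFBP3 and IGFBP6 sit at the upper edge of the main cloud and IGFBP4 in its middle.

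The other named genes of the family were dim. IGFBP5, a carrier that binds matrix and forms ternary complexes like IGFBP3, read 4.36 in the compressed and 4.15 in the uncompressed culture, and the IGFBP-like gene IGFBPL1 differed by 0.10. Both lay below the floor on both arrays. IGFBP2 was not analysed here.

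IGFBP1 and IGFBP3 are adjacent protein-coding genes on chromosome 7. The next gene beyond IGFBP3, TNS3, had a difference of -0.22 (6.42 in the compressed and 6.63 in the uncompressed culture). On the other side of IGFBP1, ADCY1, an adenylyl cyclase gene separated from it by 1 gene not analysed here, lay below the floor on average (4.47 in the compressed and 4.83 in the uncompressed culture). Among these neighbours the positive differences thus belonged to the pair of binding protein genes. TOP2A, the gene before IGFBP4 on chromosome 17, differed by -0.80, and SPRYD3, the gene before IGFBP6 on chromosome 12, by 0.24.

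The kept genes with the nearest pair of levels were listed for IGFBP1 and IGFBP3, as a numerical likeness over 2 arrays. For IGFBP1 they were MSMO1, a sterol synthesis enzyme gene (9.25 in the compressed and 8.28 in the uncompressed culture, distance 0.47 in log2 units), ERG28 (distance 0.47) and BNIP3L, a mitophagy receptor gene (distance 0.52). Their differences of 0.97, 0.97 and 0.89 were all smaller than that of IGFBP1, and none of the kept protein-coding genes lay closer than 0.47. For IGFBP3 they were far nearer: NRP2, a semaphorin co-receptor gene (7.07 in the compressed and 6.51 in the uncompressed culture, distance 0.04), RNF25 (distance 0.05) and GEM, a small GTPase gene (distance 0.07).

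The rest of the IGF axis was described from 6 lists of ligands, receptors, related proteins, proteases and signal relays, the members left out. Of 83 listed genes 57 were named and 32 kept, and 26 of these 32 (81.2%) had a positive difference, against 50.8% of all kept genes. These 26 include CCN2, whose uncompressed level was under the floor. The median difference was 0.30, against 0.01 over all kept genes. It was 0.10 with no level floor, where 36 of 57 genes (63.2%) were positive, against a median of -0.01 and a positive share of 44.3% over all named genes. Of the 32 kept genes, 4 were at least 1.5-fold higher (CTSL, IGF2BP2, IRS1 and TIMP2) and 0 were at least 1.5-fold lower. Over all kept genes these shares were 3.95% and 1.12%. The lists were drawn up with earlier results of these data known and hold genes that those results had already singled out, CTSL, TIMP2 and MMP1 among them, so they are not independent evidence of a direction.

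All 3 kept receptor genes were higher by less than 1.5-fold, where 50.8% of all kept genes had a positive difference. IGF1R, the signalling receptor for both IGFs, read 6.20 in the compressed and 5.64 in the uncompressed culture, a difference of 0.57. IGF2R, which takes up IGF2 for lysosomal breakdown, read 7.35 in the compressed and 6.86 in the uncompressed culture (0.49), and INSR, the insulin receptor gene, 5.88 and 5.61 in that order (0.27). The ligand gene IGF1 lay below the floor at 2.77 in the compressed and 3.02 in the uncompressed culture, as did the orphan receptor gene INSRR at 3.87 and 3.77. IGF2 and INS were not analysed here. The kept receptor genes thus had positive differences beside those of IGFBP1, IGFBP3 and IGFBP6, while the 1 named IGF ligand gene was dim on both arrays.

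Downstream of the receptors, IRS1, the docking protein that links IGF1R and INSR to PI3-kinase, read 6.59 in the compressed and 5.92 in the uncompressed culture (1.59-fold higher). Its relative IRS2 differed by 0.52 and the receptor-binding adaptor gene GRB10 by 0.48, while GRB14, GRB2 and SOCS3 differed by -0.20, -0.17 and -0.08. A second, dimmer probe set of SOCS3 differed by 0.74. Of 11 kept genes of the PI3K, AKT, FOXO and mTORC1 list, 0 passed 1.5-fold in either direction, and the median was 0.19. A positive difference was found in 9 (81.8%), against 50.8% of all kept genes. The most positive were TSC1 (0.51), which restrains mTORC1, RHEB (0.41), which activates it, and PDPK1 (0.38), the kinase that activates AKT. A second, dimmer probe set of PDPK1, also above the floor, differed by 0.17, so its place here rests on the brighter probe set. FOXO1, a FOXO factor gene, had the same deposited value of 6.47 on both arrays, and FOXO3 differed by -0.17. Equal values were found for 5.82% of all probe sets but were rarer among kept genes, at 182 of 7442.

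Among genes for proteases that can cut binding proteins and their inhibitors, 5 of 13 named genes were kept, all with a positive difference. Over all kept genes 50.8% were positive and 3.95% were at least 1.5-fold higher. With no level floor 8 of the 13 (61.5%) were positive, against 44.3% of all named genes. The median of this list was 0.41 with the floor and 0.09 without it. CTSL, which encodes the lysosomal enzyme cathepsin L, was 2.61-fold higher (7.01 in the compressed and 5.63 in the uncompressed culture). TIMP2, a metalloproteinase inhibitor, was 1.51-fold higher, and it was just under the size after median centring or repeated quantile normalization. ADAM9 differed by 0.41, TIMP1 by 0.40 and CTSD, cathepsin D, by 0.11. MMP1, the interstitial collagenase, read 6.55 in the compressed and 2.95 in the uncompressed culture, with a mean just under the floor, and no fold is given. The IGFBP4 protease gene PAPPA was not analysed here. Its relative PAPPA2 and its inhibitor gene STC1 were below the floor with equal values on both arrays, and STC2 differed by -0.17 below the floor.

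Genes for other proteins with an IGFBP-type domain had differences of both signs. Of 12 named genes 3 were kept. CCN2, a matricellular growth factor, differed by 0.34. It read 5.00 in the compressed and 4.66 in the uncompressed culture, so only its compressed level was above the floor. CRIM1, a membrane protein that binds BMPs, differed by 0.32, and the secreted serine protease gene HTRA1 by -0.24. A second probe set of CCN2 carried one equal value, 2.46, on both arrays. Of the IGF2 mRNA-binding proteins, which share a name but no structure with the carriers, IGF2BP2 was 1.60-fold higher (6.92 in the compressed and 6.24 in the uncompressed culture), IGF2BP3 differed by 0.12, and IGF2BP1 lay below the floor.

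**Figure D3:**
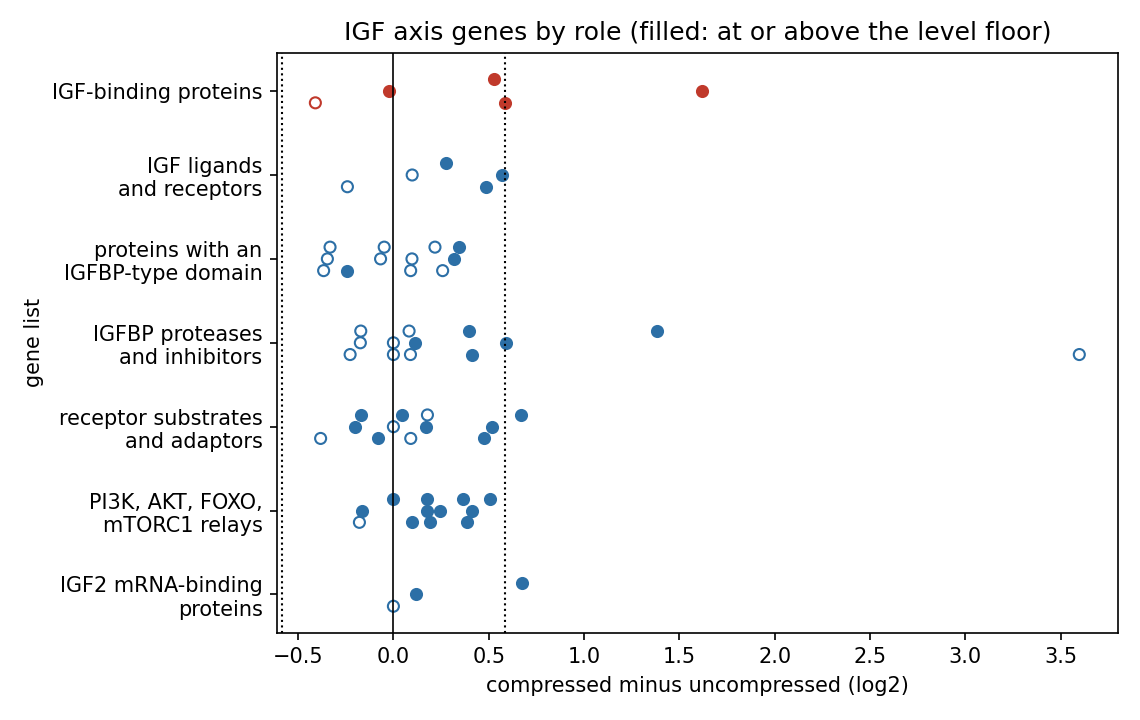
Difference (compressed minus uncompressed, log2) of each named gene by list, the 5 binding protein genes in red at the top and the 6 IGF axis lists in blue, filled where the gene was at or above the level floor and open below it, with dotted lines at 1.5-fold. IGFBP1 (1.62) and CTSL (1.38) are the filled points farthest to the right, and the open point farther right than both is MMP1, whose uncompressed level was far below the floor.

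Other genes governed by signals known to act on IGFBP1 or IGFBP3 were set beside them, by lists again drawn up with results known. Of 5 kept FOXO targets, 1 passed 1.5-fold higher, the sterol regulator gene INSIG1 (2.83-fold), which SREBP also controls. Over all kept genes 3.95% passed that size as higher and 50.8% were positive. TRIB1 and TXNIP differed by 0.40 and 0.28, and BCL6 and BCL2L11 by -0.46 and -0.07 (median 0.28). The gluconeogenic gene PCK1, like IGFBP1 repressed by insulin in liver, lay below the floor at 3.31 in the compressed and 3.52 in the uncompressed culture. Over all 11 named FOXO targets the median turned to -0.07, and 4 of the 6 below the floor had a negative difference, KLF15, SESN3, SESN1 and PCK1. The other 2 were FBXO32 (5.15 in the compressed and 4.21 in the uncompressed culture) and CCNG2 (4.81 and 4.19 in that order).

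Of 9 kept HIF targets, 3 passed 1.5-fold higher (DDIT4 at 1.10, NDRG1 at 1.07 and BNIP3L at 0.89), 8 were positive and the median was 0.21, or 0.18 over all 14 named genes. The shares over all kept genes, for this list and the next ones, were 3.95% higher by that size and 50.8% positive. LDHA was the 1 negative, at -0.04, and VEGFA differed by 0.21. Of 8 kept ATF4 targets, 2 passed higher, DDIT4 and SESN2 (0.75), TRIB3 differed by 0.58, and PSAT1, GDF15 and SHMT2 differed by -0.37, -0.29 and -0.18 (median 0.42, or 0.28 over all 14 named genes). Of 6 kept glucocorticoid-induced genes, 2 passed higher, DUSP1 (2.07) and ERRFI1 (0.98), both also induced by growth factors. MT2A came next at 0.54 (9.29 in the compressed and 8.75 in the uncompressed culture). FKBP5, a target widely used to follow glucocorticoid action, differed by -0.23 and PER1 by 0.17. The median of 0.36 became 0.13 over all 10 named genes, where ZBTB16 and SGK1 lay below the floor with negative differences. Of 8 kept p53 targets, 1 passed higher, SESN2, PLK3 differed by 0.49 and TP53I3 by 0.29, and GDF15 and BBC3 by -0.29 and -0.15 (median 0.09). In none of these lists was a kept gene at least 1.5-fold lower, against 1.12% of all kept genes, and each held kept genes with negative differences. Of 5 HIF targets with means below the floor, 3 had a negative difference. BNIP3 read 3.29 in the compressed and 4.02 in the uncompressed culture, and ANKRD37 4.46 and 3.89 in that order. Of 6 ATF4 targets with means below the floor, 3 had a negative difference. ATF3 read 5.21 in the compressed and 4.20 in the uncompressed culture, and DDIT3 3.83 and 2.96 in that order. Which of these signals, if any, moved with the binding protein genes was not tested. Of the receptors reported to bind these proteins, 3 of 9 were named, and TMEM219, a receptor reported for IGFBP3, differed by -0.08.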

How the data were processed

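The authors deposited log2 signals, for which the submitters' processing notes name RMA and the Transcriptome Analysis Console. RMA subtracts background, gives both arrays 1 distribution and summarises probes, so a change shared by all genes is removed and changes near background shrink. Their versions and the genome build are not stated there. The table held 53617 probe sets, of which 16098 carried 1 gene name, giving 14884 genes. Each member had 1 probe set. For the 779 genes with several, the one with the highest mean was used. Groups came from the treatment label, 1 array each.

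The members and all gene lists were chosen with earlier results of these data known. Genes named are the members and other IGFBP-prefixed genes, all IGF ligands and receptors, up to 3 genes in each direction of each list with any past 1.5-fold, and the 3 genes nearest in levels to IGFBP1 and to IGFBP3. Neighbouring genes, further list genes and genes below the floor were named after their values were seen. Gene order came from RefSeq (GRCh38.p14). Computations used Python 3.11.15, NumPy 2.4.6, pandas 2.3.3, statsmodels 0.14.6 and matplotlib 3.10.9.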

Additional observations from a re-analysis of the deposited data

How the results depend on the processing

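The 5 members' differences kept their sign under loess correction (span 0.3), median centring and repeated quantile normalization. Median centring only subtracts 0.007 from every difference. The mean of all probe sets could not change the members, because each had 1 probe set. IGFBP1 lay between 1.56 and 1.63, IGFBP3 between 0.47 and 0.53, IGFBP6 between 0.53 and 0.58, IGFBP4 between -0.06 and -0.02 and IGFBP7 between -0.42 and -0.36. IGFBP6 thus stayed under 1.5-fold in each of these settings. Kept genes past the size in the compressed culture numbered 294 higher and 83 lower, against 560 and 421 with no level floor, 137 and 30 with a floor at the 75th percentile, 71 and 6 at 2-fold, and 1005 and 616 at a size of 0.32 in log2, where the change follows from the number of genes or the size itself. The IGF axis count of 4 higher genes became 1 at 2-fold and 15 at 0.32 in log2, and its median of 0.30 became 0.10 with no floor, which adds 25 dim genes. The other 48 of 59 recomputed values stayed within 1.5 times of a count or within 0.186 of a difference. Some of these 48 were fixed in advance, such as the 5 members' values under the mean of all probe sets. The IGF axis count of 0 lower genes could not rise at 2-fold or with the floor at the 75th percentile. Median centring could not move a difference by 0.186. The 48 are therefore no measure of how robust the values are. No paired analysis was possible because each group has 1 array, and no replicate could be left out. No scanner intensities were used, so whether IGFBP7, IGFBP5 or IGF1 was above background is unknown.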

Other observations

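Each of the 4 tensin genes, whose proteins are found at integrin adhesions, lay within 2 protein-coding places of an IGF binding protein gene. The arrangement was noticed after the neighbours were listed. TNS4, beside IGFBP4, differed by 0.28 (7.81 in the compressed and 7.54 in the uncompressed culture). TNS2, near IGFBP6, differed by 0.30 (5.81 in the compressed and 5.51 in the uncompressed culture), and TNS3, beside IGFBP3, by -0.22. TNS1, near IGFBP5, was below the floor at 3.09 in the compressed and 3.06 in the uncompressed culture. The tensin differences were all under 1.5-fold. TNS3 was lower beside the pair with positive differences, and TNS4 was higher beside IGFBP4, which had almost none.

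IGFBP1's difference exceeded that of every named gene in the 6 IGF axis lists except MMP1.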
